A study of Mus musculus with 3 samples.

Results

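The genes described here are 56 genes of the cell cycle and of mitosis, measured with and without added MAFK in NMuMG cells, a line of mouse mammary epithelium. They were listed by name, as genes known for roles in DNA replication or in cell division. No value on these arrays entered the rule, but the list was drawn up with earlier results of these data known, so its counts are a description. On the arrays 55 of the 56 had a probe set annotated to that gene alone, out of 19935 genes compared. The gene of cyclin B1, Ccnb1, had none and was not analysed here. Where a gene had more than 1 such probe set, the set of highest mean level represented the gene.

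MAFK belongs to the small MAF proteins, which bind DNA through a basic leucine zipper and have no activation domain. The control cells carried the empty pCAGIP vector (mock, 1 array). The other cells carried FLAG-MafK in the same vector and were 2 stable clones, clone 4 and clone 10 (MAFK, 1 array each). All 3 cultures were grown in medium with 10% serum and 1 µg/ml puromycin, and 100 ng of total RNA was labelled for each array. Each MAFK culture came from 1 clone and the mock culture is not labelled as clonal, so an effect of MAFK and a difference that arose in cloning cannot be told apart. The labels give no synchronisation, cell density or doubling time for any of the cultures. Nor do they say that the cultures were separate, so a p-value here covers these arrays alone. It rests on the difference between the 2 clone arrays, pooled with such differences in other genes. The spread of mock was not measured. The precision is limited by there being 3 arrays.

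The cell cycle runs from G1 through DNA replication in S phase and through G2 to mitosis (M). Genes needed at the G1/S transition, among them those of the MCM helicase that opens replication origins, are transcribed early under E2F factors. Genes needed in G2 and mitosis, among them those of the spindle, the kinetochore and the cytokinesis machinery, are transcribed later under B-MYB and FOXM1, largely through CHR elements and CCAAT boxes in their promoters. Transcripts of both kinds are low in resting cells and abundant in dividing ones. In RNA from a whole culture, a larger share of cells in a phase and more RNA per cell cannot be told apart.

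The values are log2 expression made with RMA, and their medians over all probe sets were 6.89 to 6.93 on the 3 arrays. Of 19935 genes, limma called 232 (1.16%) at a Benjamini-Hochberg adjusted p under 0.05, of which 80 were higher and 152 lower in MAFK, and the smallest difference called was 1.14 on the log2 scale (2.21-fold). The Mafk probe set gave 8.49 in mock, against 8.74 in clone 4 and 8.59 in clone 10 (limma adjusted p = 0.612). Whether it covers the sequence carried by the vector was not tested, so it is no check of the labels. Of 10 mammary epithelial markers, none was higher and 3 were lower by at least 1.2-fold in both clones. These were Krt8, Krt18 and Cdh1, and the E-cadherin gene Cdh1 fell from 11.35 in mock to 6.85 and 6.64 (limma adjusted p = 0.0282). The keratin genes Krt8, Krt18 and Krt19 read above 10.9 on every array, while Epcam (5.58) and Esrp1 (5.48) lay below the array medians in all 3 cultures, mock included. Of 7 fibroblast markers, Col1a1 and Col1a2 were higher and Dcn was lower by that measure. None of 5 endothelial and 5 immune markers was either, and Pecam1 (5.99) and Ptprc (5.81) read the same on all 3 arrays. The part of the marker differences in the values of the cell cycle genes was not tested.

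Members were mostly somewhat higher in both MAFK clones than in mock, and the members of mitosis more often so than those of DNA replication. Of the 55 measured members, 22 (40.0%) were at least 1.2-fold above mock in both clones, against 8.17% of all genes and 12.2% of the 7059 genes whose mean level reached that of the lowest member. Only Ccne2 was at least 1.2-fold below mock in both clones, against 8.18% of all genes and 12.5% of those 7059. A difference of any size above 0.001 in the same direction was seen upwards in 39 members and downwards in 2, while 6 members read the same on all 3 arrays within 0.001. Of all 19935 genes 6703 were above, 3554 below and 6859 the same. Of the 7059 genes 2180 were above, 2131 below and 1543 the same. The sizes were small: only Racgap1, Cenpa and Bub1 were at least 1.5-fold above mock in both clones. These were 3 of the 55 members, against 2.54% of all genes and 3.85% of the 7059, so the shares lay closer together than at 1.2-fold. The median difference from mock over the members was 0.21 on the log2 scale in each clone, against 0 over all genes.

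No member passed limma's test at an adjusted p under 0.05, and the lowest adjusted p among them was that of Cenpa (limma, 0.0806). At an unadjusted p under 0.05 limma passed 21 of the 55 members, all higher in MAFK, against 9.20% of all genes higher and 8.26% lower. Of the 7059 genes at or above the lowest member mean, limma passed 1820 in either direction. Each gene had 1 residual degree of freedom, and the smallest difference called by limma among all genes (1.14) was larger than that of any member. With limma's usual prior, estimated from all genes, 16 of the 55 members were called, against 3553 of all 19935 genes. The count of 0 is therefore no measure of how alike the cultures are, and the values of single members are given as measured differences.

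**Figure D1:**
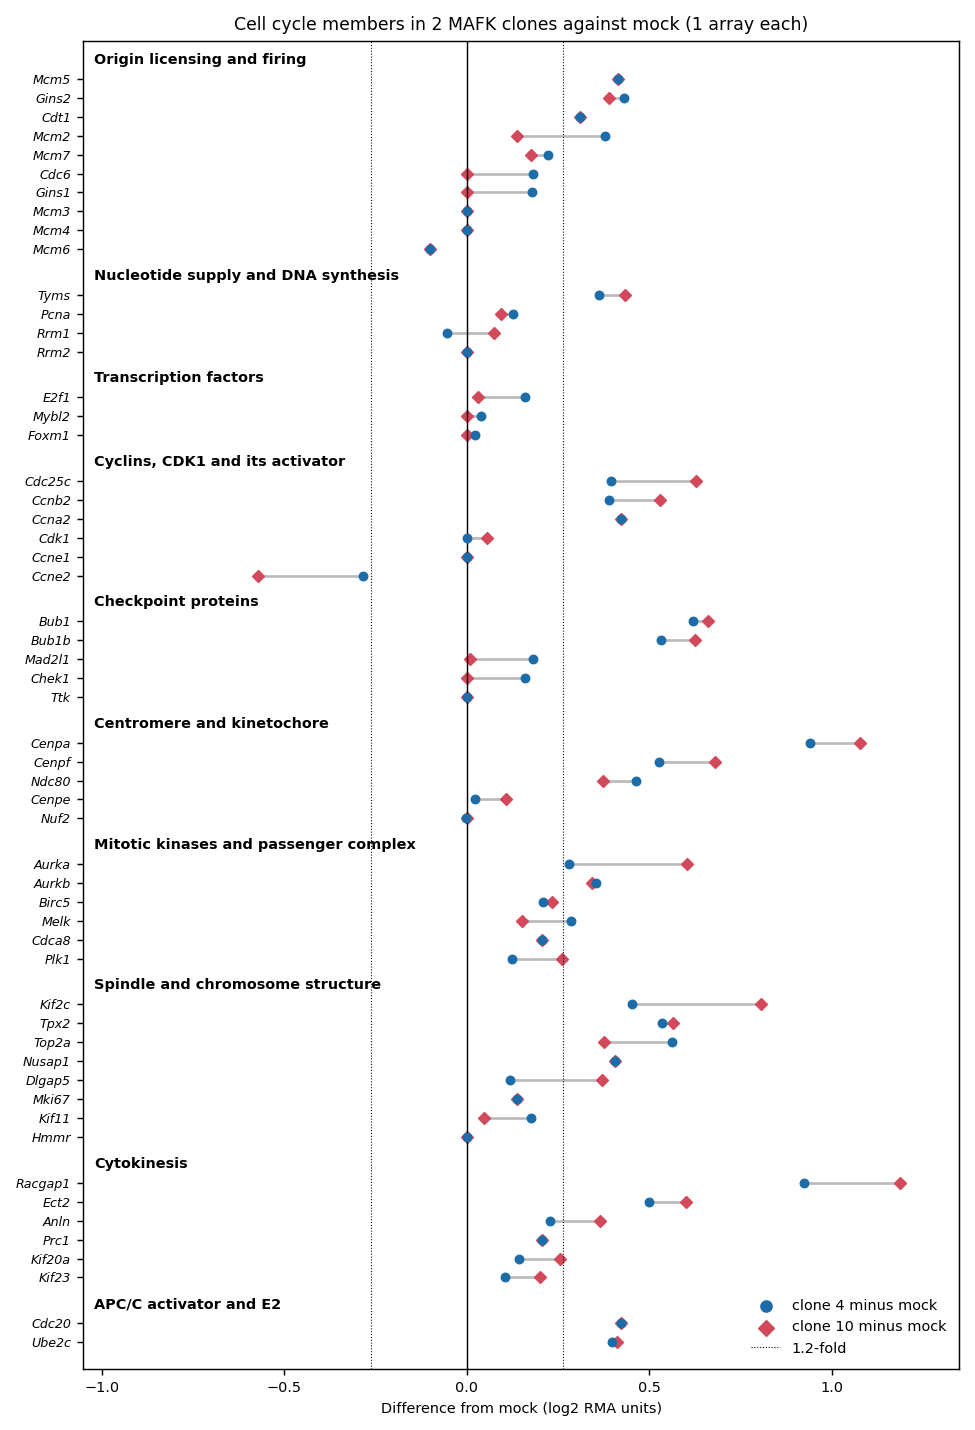
Difference from mock on the log2 RMA scale (x axis) for the 55 measured members (y axis, grouped by role), with a circle for clone 4 and a diamond for clone 10, each 1 array, and dotted lines at 1.2-fold. Racgap1 and Cenpa lie farthest to the right in both clones, Ccne2 alone lies to the left of the lower dotted line in both, and 6 members sit at 0.

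Members of the 2 phases differed in these counts. Of 36 measured members that act in G2 or mitosis, 18 were at least 1.2-fold above mock in both clones, none was below mock in both, and their median difference from mock was 0.28 for clone 4 and 0.37 for clone 10. Of 19 members that act at the G1/S transition or in S phase, 4 (21.1%) were at least 1.2-fold above mock in both clones and 1 was below by that much, with a median difference of 0.16 in clone 4 and 0 in clone 10. At least 1.2-fold above mock were also 8.17% of all genes and 12.2% of the 7059 genes at or above the lowest member mean. Above mock by any amount in both clones were 31 of the 36 and 8 of the 19, against 33.6% of all genes and 30.9% of the 7059. After the mean difference of each gene's chromosome was taken off, the counts at least 1.2-fold above mock were 19 of the 36 and 1 of the 19. The share of all genes was not counted after that step. The difference between the phases was not tested.

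**Figure D2:**
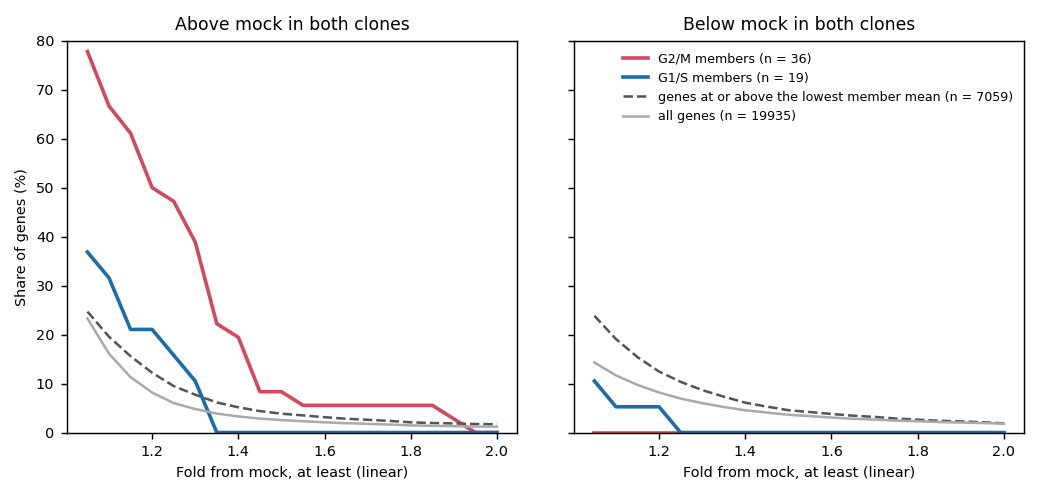
Share of genes (y axis, percent) at least a given fold (x axis, linear) above mock in both clones (left) or below mock in both clones (right), for G1/S members (n = 19), G2/M members (n = 36), all genes (n = 19935) and the 7059 genes at or above the lowest member mean. At 1.2-fold above mock 18 of the 36 G2/M members are counted, with the G1/S members at 21.1% and all genes at 8.17%, and on the right the G2/M members stay at 0.

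The 6 members with the largest mean differences and a promoter in the RefSeq table were Racgap1, Cenpa, Bub1, Kif2c, Cenpf and Bub1b, all of G2 or mitosis. Their promoters are shown because genes of this phase are known for CCAAT boxes and CHR elements close to the start. Each run is the 250 bases before the annotated start in RefSeq (build GRCm38.p6), 5′ to 3′ on the strand of the gene. Capitals mark a CCAAT box (CCAAT), a CHR element (TTTGAA or its variant TTCGAA) or an E2F motif (TTTCGCGC, TTTGGCGC or TTCCCGCC) on either strand, so that a match on the other strand reads as the reverse complement. The regions are chr15:99651657-99651906 (minus strand) for Racgap1, chr5:30666636-30666885 (plus) for Cenpa, chr2:127831860-127832109 (minus) for Bub1, chr4:117178773-117179022 (minus) for Kif2c, chr1:189688087-189688336 (minus) for Cenpf and chr2:118597961-118598210 (plus) for Bub1b.
Racgap1: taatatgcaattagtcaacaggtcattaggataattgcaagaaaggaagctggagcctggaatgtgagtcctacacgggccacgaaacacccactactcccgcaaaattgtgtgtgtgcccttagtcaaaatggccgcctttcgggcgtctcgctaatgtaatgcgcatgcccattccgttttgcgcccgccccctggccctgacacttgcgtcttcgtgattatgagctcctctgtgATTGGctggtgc
Cenpa: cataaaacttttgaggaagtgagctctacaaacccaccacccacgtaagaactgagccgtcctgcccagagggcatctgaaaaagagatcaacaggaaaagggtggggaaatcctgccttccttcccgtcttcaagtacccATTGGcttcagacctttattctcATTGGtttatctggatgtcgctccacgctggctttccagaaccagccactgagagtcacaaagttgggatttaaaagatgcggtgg
Bub1: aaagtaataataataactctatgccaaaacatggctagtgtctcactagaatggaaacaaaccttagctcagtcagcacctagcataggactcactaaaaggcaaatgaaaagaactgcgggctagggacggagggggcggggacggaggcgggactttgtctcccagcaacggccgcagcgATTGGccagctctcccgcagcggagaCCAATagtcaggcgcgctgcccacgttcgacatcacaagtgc
Kif2c: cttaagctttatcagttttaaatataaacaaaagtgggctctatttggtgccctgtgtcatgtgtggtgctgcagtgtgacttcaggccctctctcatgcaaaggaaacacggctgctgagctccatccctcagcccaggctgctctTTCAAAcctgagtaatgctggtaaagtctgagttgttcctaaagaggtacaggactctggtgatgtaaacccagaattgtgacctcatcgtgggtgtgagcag
Cenpf: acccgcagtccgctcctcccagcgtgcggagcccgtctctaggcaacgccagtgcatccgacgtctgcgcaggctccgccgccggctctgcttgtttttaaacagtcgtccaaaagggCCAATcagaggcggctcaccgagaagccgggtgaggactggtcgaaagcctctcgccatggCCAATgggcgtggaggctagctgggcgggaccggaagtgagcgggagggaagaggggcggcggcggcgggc
Bub1b: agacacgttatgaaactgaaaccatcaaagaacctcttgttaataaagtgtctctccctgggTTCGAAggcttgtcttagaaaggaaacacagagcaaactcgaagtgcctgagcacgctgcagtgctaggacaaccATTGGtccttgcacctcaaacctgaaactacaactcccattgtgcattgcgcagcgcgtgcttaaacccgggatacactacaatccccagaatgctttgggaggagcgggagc
Positions are counted backwards from the start, with -1 for the base next to it, and give the first base of a match. Racgap1 held a CCAAT box at -12, Cenpa held 2 at -109 and -86, Bub1 held 2 at -68 and -42, Cenpf held 2 at -132 and -71, and Bub1b held 1 at -113. A CHR element stood at -103 in Kif2c, and the variant TTCGAA, which reads the same on both strands, at -188 in Bub1b. None of the 6 held one of the E2F motifs. A match is a description of these letters and not a measured binding site.

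**Figure D3:**
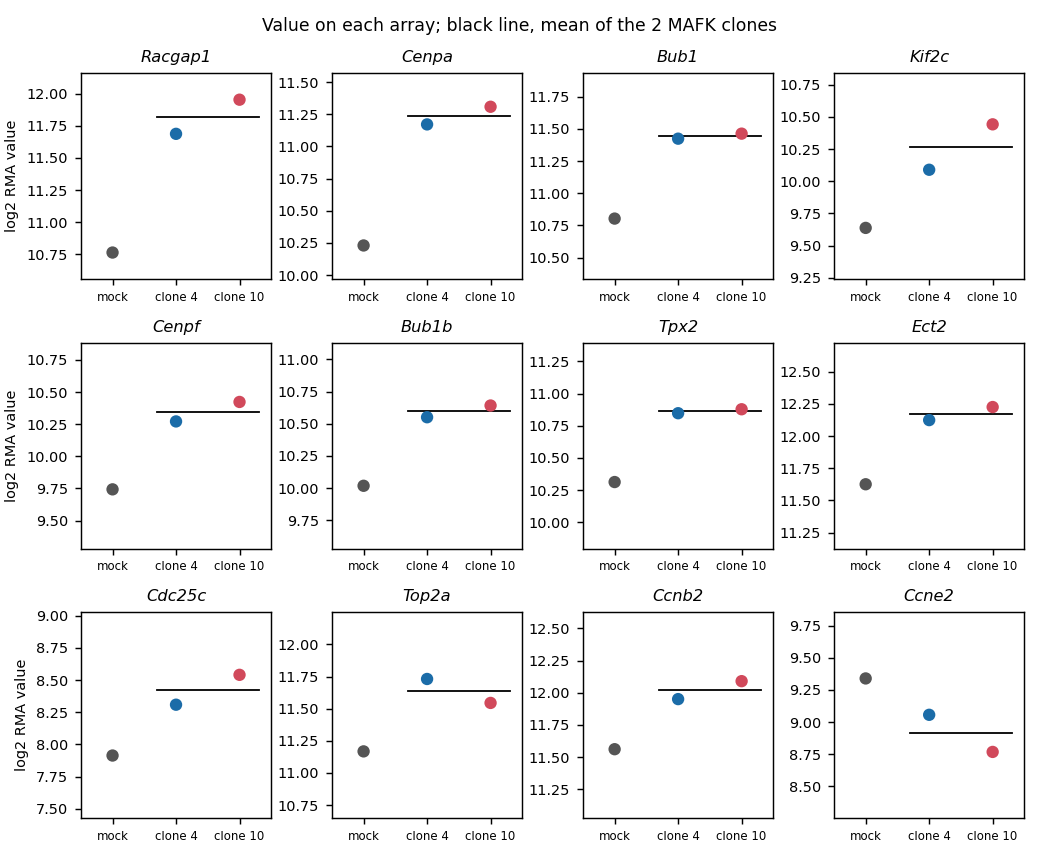
Value on each array (y axis, log2 RMA value, each panel spanning the same height) in mock, clone 4 and clone 10 (x axis) for the 11 members with the largest mean difference and Ccne2, with a black line at the mean of the 2 clones. Both clones lie above mock in the first 11 panels and below it in that of Ccne2.

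At replication origins, the MCM proteins form the helicase that is loaded at origins in G1, with CDC6 and CDT1 as loaders, and the GINS proteins join it when origins fire. Of 10 members, 3 were at least 1.2-fold above mock in both clones and none was below by that much. Mcm5, a subunit of the helicase, read 10.50 in mock and 10.92 in both clones, a mean difference of 0.41 ± 0.07 (SE; limma adjusted p = 0.147). Gins2 read 9.07 in mock, against 9.50 in clone 4 and 9.46 in clone 10 (difference 0.41; limma adjusted p = 0.154). The loader Cdt1 read 9.52 in mock and 9.83 in both clones (difference 0.31; limma adjusted p = 0.200). These 3 genes lie on chromosome 8. After the mean difference of that chromosome was taken off, none of them was at least 1.2-fold above mock in both clones. The other MCM genes were unlike one another. Mcm3 and Mcm4 had the same value on all 3 arrays, and Mcm6 read 10.27 in mock and 10.17 in both clones. Mcm2 was 0.38 above mock in clone 4 and 0.14 in clone 10, and Mcm7 was 0.22 and 0.18 above. Cdc6 and Gins1 each differed from mock by 0.18 in clone 4 and by 0 in clone 10.

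Of 4 members that act in nucleotide supply and DNA synthesis, Tyms alone was at least 1.2-fold above mock in both clones. Tyms encodes thymidylate synthase, which makes the thymidine nucleotide, and read 10.54 in mock, while clone 4 was at 10.90 and clone 10 at 10.97 (difference 0.40; limma adjusted p = 0.173). Pcna, the sliding clamp of the replicative polymerases, read 12.08 in mock, with 12.21 in clone 4 and 12.18 in clone 10. Its second probe set was 0.09 and 0.06 above mock. The ribonucleotide reductase gene Rrm1 read 11.86 in mock, against 11.81 in clone 4 and 11.94 in clone 10, so that mock lay between the clones, and Rrm2 was equal on all arrays.

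None of the 3 transcription factors that drive the 2 programmes differed from mock by 1.2-fold in either clone. E2f1, an activator of G1/S genes, read 9.55 in mock, while clone 4 was at 9.71 and clone 10 at 9.58. Mybl2, the gene of B-MYB, read 9.46 in mock, with 9.49 in clone 4 and 9.46 in clone 10. Foxm1, the forkhead factor of G2 and mitosis, read 10.54 in mock, against 10.56 in clone 4 and 10.54 in clone 10. Of the mitotic members described here, many were higher in the clones, and the Foxm1 and Mybl2 values differed from mock by less than 0.05. The activity of these factors was not measured, and their part in the differences was not tested.

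Among the cyclins, CDK1 and its activator, Ccnb2 and Ccna2 were above mock in both clones and Ccne2 was below. Cdc25c, the phosphatase that switches on CDK1, read 7.91 in mock, while clone 4 was at 8.31 and clone 10 at 8.54 (difference 0.51; limma adjusted p = 0.243). Ccnb2, a B-type cyclin, read 11.56 in mock, with 11.95 in clone 4 and 12.09 in clone 10 (difference 0.46; limma adjusted p = 0.194). Ccna2, the cyclin of S phase and G2, read 12.17 in mock and 12.60 in both clones (difference 0.42; limma adjusted p = 0.144). Ccne2, a cyclin that starts S phase, ran the other way, with 9.34 in mock, against 9.06 in clone 4 and 8.77 in clone 10. The mean of the clones was 1.34-fold below mock (difference -0.43 ± 0.16, SE; limma adjusted p = 0.365). With the arrays quantile normalized again, it was less than 1.2-fold below mock in 1 of the clones. Its paralogue Ccne1 was equal on all arrays. Cdk1, the kinase itself, read 11.50 in mock and clone 4 and 11.56 in clone 10.

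The spindle checkpoint holds cells in mitosis until every kinetochore is attached, and its members differed among themselves. Bub1, the checkpoint kinase, read 10.80 in mock, while clone 4 was at 11.42 and clone 10 at 11.46 (1.56-fold in the mean, difference 0.64 ± 0.07, SE; limma adjusted p = 0.0950). Bub1b, which encodes BUBR1, read 10.02 in mock, with 10.55 in clone 4 and 10.64 in clone 10 (difference 0.58; limma adjusted p = 0.126). For both genes the clones lay close to each other and above mock. Mad2l1, the gene of MAD2, read 11.62 in mock, against 11.81 in clone 4 and 11.64 in clone 10, and Ttk, the MPS1 kinase, was equal on all arrays. Chek1, the kinase of the DNA damage and replication checkpoint, was 0.16 above mock in clone 4 and 0 in clone 10.

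At the centromere and kinetochore, 3 of 5 members were at least 1.2-fold above mock in both clones. Cenpa encodes the histone H3 variant that marks centromeres, and read 10.23 in mock, against 11.17 in clone 4 and 11.31 in clone 10. Both clones lay above mock (2.01-fold in the mean, difference 1.01 ± 0.10, SE; limma adjusted p = 0.0806). Cenpf, a large kinetochore protein of G2 and mitosis, read 9.74 in mock, while clone 4 was at 10.27 and clone 10 at 10.42 (difference 0.60; limma adjusted p = 0.151). Ndc80, the microtubule-binding subunit of the kinetochore, read 8.66 in mock, with 9.12 in clone 4 and 9.03 in clone 10 (difference 0.42; limma adjusted p = 0.175). These were the 3 members past 1.2-fold. Nuf2, the partner of NDC80 in the same complex, differed from mock by less than 0.01 in both clones, and the kinetochore motor gene Cenpe was 0.02 and 0.11 above mock.

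Of 6 mitotic kinases and passenger proteins, 2 were at least 1.2-fold above mock in both clones and the other 4 were above it, with at least 1 clone under 1.2-fold. Aurka, the centrosomal Aurora kinase, read 10.18 in mock, against 10.46 in clone 4 and 10.78 in clone 10 (difference 0.44; limma adjusted p = 0.392), and was farther above mock in clone 10. Aurkb, the kinase of the chromosomal passenger complex, read 11.04 in mock, while clone 4 was at 11.39 and clone 10 at 11.38 (difference 0.35; limma adjusted p = 0.177). Birc5, the gene of the passenger protein survivin, read 9.20 in mock, with 9.41 in clone 4 and 9.43 in clone 10 (difference 0.22; limma adjusted p = 0.294). The passenger gene Cdca8, which encodes borealin, was 0.21 above mock in both clones. Plk1, the polo-like kinase, was 0.13 and 0.26 above, and Melk was 0.29 and 0.15 above.

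The 8 members that shape the spindle and mitotic chromosomes ran from no difference to 1.55-fold. Kif2c, a kinesin that takes microtubules apart at the centromere, read 9.64 in mock, against 10.09 in clone 4 and 10.44 in clone 10 (difference 0.63; limma adjusted p = 0.281). Tpx2, which activates Aurora A on the spindle, read 10.31 in mock, while clone 4 was at 10.85 and clone 10 at 10.88 (difference 0.55; limma adjusted p = 0.111). Top2a, the topoisomerase that untangles sister chromatids, read 11.17 in mock, with 11.73 in clone 4 and 11.54 in clone 10 (difference 0.47; limma adjusted p = 0.225). A second and dimmer probe set of Top2a was 0.21 above mock in clone 4 and equal to it in clone 10, so the probe sets of this gene differ for clone 10. Nusap1, a spindle protein, was 0.41 above mock in both clones. Dlgap5 was 0.12 and 0.37 above, Kif11, the kinesin that pushes spindle poles apart, was 0.18 and 0.05 above, and Hmmr was equal on all arrays. Mki67, the gene of the proliferation marker Ki-67, read 12.14 in mock and 12.27 in both clones (difference 0.14; limma adjusted p = 0.514).

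Of 6 cytokinesis members, 2 were at least 1.2-fold above mock in both clones. Racgap1, a subunit of centralspindlin, which positions the cleavage furrow, had the largest difference of all members. It read 10.76 in mock, against 11.69 in clone 4 and 11.95 in clone 10 (2.08-fold in the mean, difference 1.06 ± 0.15, SE; limma adjusted p = 0.126). Ect2, the RhoA exchange factor that centralspindlin recruits, read 11.63 in mock, while clone 4 was at 12.12 and clone 10 at 12.23 (difference 0.55; limma adjusted p = 0.138). Anln, the actin-binding scaffold of the contractile ring, read 11.15 in mock, with 11.37 in clone 4 and 11.51 in clone 10 (difference 0.30; limma adjusted p = 0.313). Kif23, the kinesin subunit of centralspindlin, was 0.11 and 0.20 above mock and so did not match the size seen for its partner Racgap1. The midzone genes Prc1 (0.21 above mock in both clones) and Kif20a (0.14 and 0.25) lay between.

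The anaphase-promoting complex is the ubiquitin ligase that ends mitosis. Cdc20, its activator, read 10.01 in mock and 10.43 in both clones (difference 0.42; limma adjusted p = 0.144). Ube2c, the ubiquitin-conjugating enzyme that works with it, read 10.55 in mock, against 10.95 in clone 4 and 10.96 in clone 10 (difference 0.40; limma adjusted p = 0.152). Both members of this group were thus at least 1.2-fold above mock in both clones.

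Between the clones, 15 of the 55 members read the same within 0.001, against 11089 of all 19935 genes and 2737 of the 7059 genes at or above the lowest member mean. Of the 55 members, 4 were at least 1.2-fold apart between the clones, against 6.15% of all genes and 10.1% of the 7059, a share near the background. Kif2c (0.35), Aurka (0.32) and Racgap1 (0.27) were higher in clone 10, and Ccne2 was lower there, with a difference of clone 10 from clone 4 of -0.29. With small differences counted too, the phases lay on opposite sides. Clone 10 was above clone 4 in 21 of 36 G2/M members and below it in 7, and was above in 2 of 19 G1/S members (Rrm1 and Tyms) and below in 10, while 26.8% of the 7059 genes were above and 34.4% below. This comparison has 1 array a side and no test.

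**Figure D4:**
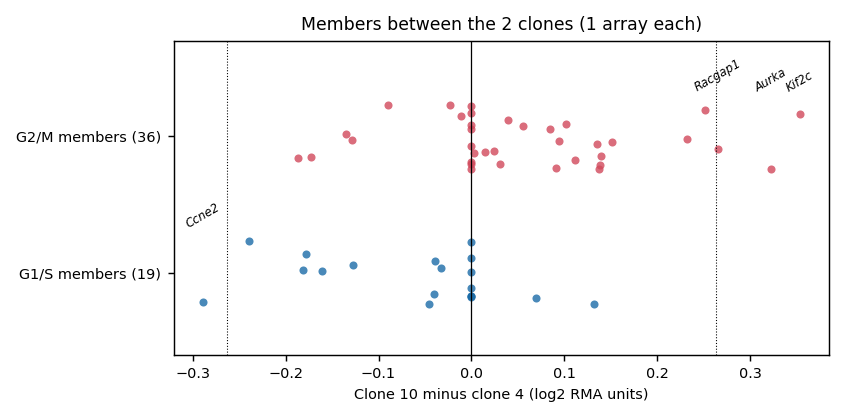
Difference of clone 10 from clone 4 (x axis, log2 RMA units) for each member, 1 array a clone. Most G2/M members that differ lie to the right of 0 and most G1/S members that differ lie to the left, with Kif2c and Aurka farthest right and Ccne2 farthest left.

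The higher members were spread over the genome, and some lay on chromosomes whose genes were higher as a whole. The 22 members at least 1.2-fold above mock in both clones lay on 11 chromosomes, with 6 on chromosome 2 (Bub1, Bub1b, Aurka, Tpx2, Nusap1 and Ube2c) and 3 on chromosome 8 (Mcm5, Cdt1 and Gins2). The mean difference from mock over genes at or above the median level was 0.18 in both clones on chromosome 8 (561 genes), and 0.10 in clone 4 and 0.08 in clone 10 on chromosome 2 (793 genes). After the mean of its chromosome was taken off each gene, 20 members were at least 1.2-fold above mock in both clones, 18 of them as before. The share of all genes was not counted in this way. Aurka, Cdt1, Gins2 and Mcm5 dropped out, and Anln and Dlgap5 came in. Tyms was the G1/S member left.

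Promoter letters were counted over the members that the RefSeq table held. It listed promoters for 45 of the 56 members and for 27025 genes in all, and a gene was counted where any of its promoters held the motif on either strand in the 250 bases before the start. A CCAAT box was found in 30 of 45 members (66.7%) against 37.5% of all genes. It was present in 22 of 30 G2/M members (73.3%) and 8 of 15 G1/S members (53.3%). A CHR element or its variant was found in 13 of 45 members (28.9%) against 19.6% of all genes, and was present in 11 of 30 G2/M members (36.7%) and in Mcm2 and Mcm7 among 15 G1/S members (13.3%). Both elements together were found in 12 members (26.7%) against 7% of all genes. One of the E2F motifs was found in 4 members (8.89%) against 2.85%, namely the G1/S members Mcm5, Mcm6 and Rrm1 and the G2/M member Cdk1. Among the measured members, a CCAAT box was in 12 of the 17 listed genes that were at least 1.2-fold above mock in both clones and in 17 of the other 27, and a CHR element in 7 and 6 of them.

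Small MAF proteins bind the MAF recognition element and, with a CNC partner, the antioxidant response element, so their letters were searched as well. The core of the antioxidant response element, TGACNNNGC, was found in 9 of 45 members, against 11.5% of all genes, and in Bub1 and Ect2 among the 17 higher ones. The letters TGCTGA, the flank and core of a MAF element, were found in 5 members (11.1%) against 18% of all genes, namely Bub1, Ect2, Kif2c, Plk1 and Ttk. The last 2 motifs can overlap each other. These shares have no test, and nothing was measured of MAFK on these promoters.

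Other genes of the same machinery, none of them a member, were read from 8 lists. Of 159 listed genes 155 were measured, and 41 of these (26.5%) were at least 1.2-fold above mock in both clones, against 8.17% of all genes, while 5 were below by that much (Cdk6, E2f6, Rb1, E2f3 and Cenpj, the last 3 named after their values were seen). None was called by limma at an adjusted p under 0.05. At an unadjusted p under 0.05 limma passed 50 of the 155, in either direction, and the 5 lower genes were among these. By that measure 3481 of all 19935 genes passed, and 1820 of the 7059 genes at or above the lowest member mean. Their median differences from mock were 0.08 for clone 4 and 0.06 for clone 10.

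In these lists, above and below stand for at least 1.2-fold in both clones. The list of other spindle and cytokinesis genes had the largest share above, with 13 of 32 genes above and 1 below, and medians of 0.22 and 0.31. Shcbp1, which binds the centralspindlin complex, read 9.50 in mock, while clone 4 was at 10.37 and clone 10 at 10.36 (difference 0.86; limma adjusted p = 0.0686). Ckap5, a microtubule polymerase, read 10.04 in mock, with 10.73 in clone 4 and 10.86 in clone 10 (difference 0.75; limma adjusted p = 0.109). Among 29 other centromere and kinetochore genes 7 were above and none below, with medians of 0.06 in clone 4 and 0.01 in clone 10. Their share above was 24.1%, against 20.7% of the replication genes outside the members. Cenpm read 9.90 in mock, against 11.01 in clone 4 and 10.89 in clone 10 (2.07-fold in the mean; limma adjusted p = 0.0731). Cenpn, which reads the CENP-A nucleosome, read 10.41, 11.05 and 11.14 in the same order (difference 0.68; limma adjusted p = 0.103). Among 17 cohesin and condensin genes 5 were above and none below, with medians of 0.10 and 0.05. The condensin II gene Ncaph2 read 9.49 in mock, while clone 4 was at 10.31 and clone 10 at 10.39 (limma adjusted p = 0.0749). Espl1, the separase that cuts cohesin, read 8.82 in mock, with 9.76 in clone 4 and 9.58 in clone 10 (limma adjusted p = 0.119).

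Of 29 replication genes outside the members, 6 were above and none below, with medians of 0.07 and 0.04. The clamp loader genes Rfc4 (10.61 in mock, against 11.19 in clone 4 and 11.27 in clone 10) and Rfc3 (9.18, 9.73 and 9.70) differed most. Of 18 APC/C subunits and SCF partners 4 were above and none below, led by Anapc11 (8.98 in mock, while clone 4 was at 9.60 and clone 10 at 9.52) and Anapc5 (10.61 in mock and 11.07 in both clones). Of 16 RB, E2F and DREAM factors 3 were above and 3 below. The repressor E2f6 read 8.55 in mock, with 7.80 in clone 4 and 7.69 in clone 10 (difference -0.80; limma adjusted p = 0.0929), and E2f4 read 9.85 in mock, against 10.41 in clone 4 and 10.13 in clone 10. Of 8 G1 cyclins and CDKs, 1 was above and 1 below. The CDK-activating phosphatase Cdc25b read 10.05 in mock and 10.88 in both clones (limma adjusted p = 0.0695). The G1 kinase gene Cdk6 read 11.42 in mock, while clone 4 was at 11.02 and clone 10 at 10.78 (limma adjusted p = 0.246).

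**Figure D5:**
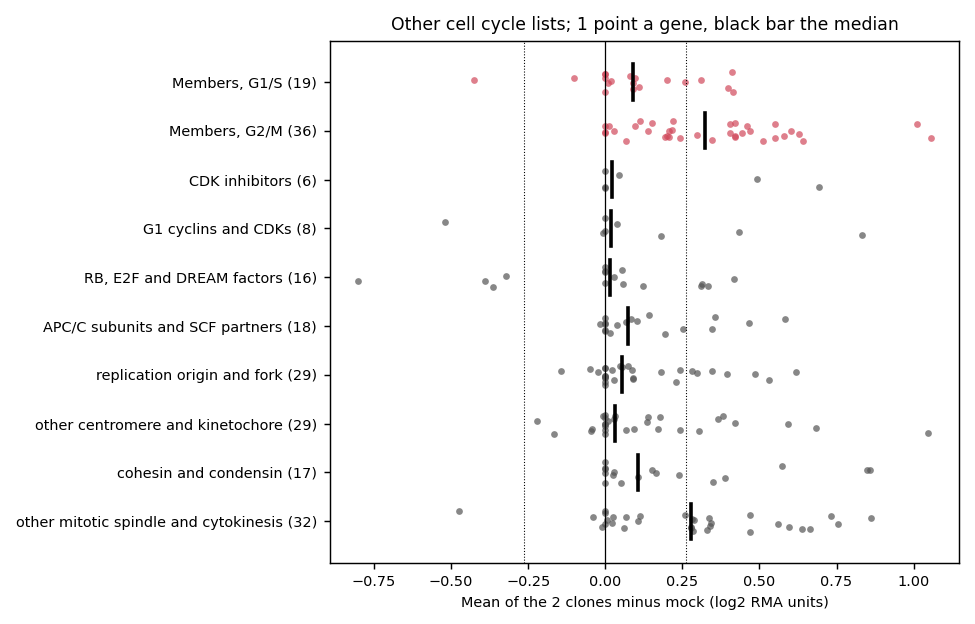
Mean of the 2 clones minus mock (x axis, log2 RMA units), 1 point a gene, with a black bar at the median of each row. The upper rows (y axis) hold the measured G1/S and G2/M members in red. The rows below them hold the measured genes of the 8 other cell cycle lists. Points of the spindle and cytokinesis list lie mostly to the right of 0, and the CDK inhibitors hold 2 points to the right and 4 close to 0.

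The inhibitors of cyclin-dependent kinases, which hold cells in G1, were measured for 6 genes, of which 2 were at least 1.2-fold above mock in both clones and none was below by that much. Of all genes 8.17% were above and 8.18% below by this measure. Cdkn2a, the INK4A and ARF locus, read 7.79 in mock, with 8.49 in clone 4 and 8.47 in clone 10 (1.62-fold in the mean, difference 0.69 ± 0.07, SE; limma adjusted p = 0.0835). Cdkn2c, the gene of p18, read 9.33 in mock, against 9.81 in clone 4 and 9.84 in clone 10 (difference 0.49; limma adjusted p = 0.126). Cdkn1b (10.50) and Cdkn1c (6.78) read the same on all 3 arrays. Cdkn2b read 8.50 in mock, against 8.46 in clone 4 and 8.54 in clone 10, and Cdkn2d read 7.52, 7.54 and 7.58. Cdkn1a was not analysed here. Cdkn2a and Cdkn2c were thus among the genes at least 1.2-fold above mock in both clones, together with the mitotic genes.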

How the data were processed

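Expression per probe set was deposited for 3 arrays as log2 values, which the authors obtained with RMA, per the submitters' processing notes. RMA corrects background, quantile normalizes and summarises probes by median polish, which can return equal values on several arrays. Version, filters and genome build are not given in the sources used here. Of 28815 probe sets, 21780 had 1 gene symbol and were named, 1605 had several and 5430 had none. Symbols were updated by Entrez identifier for 21689.

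The members were listed by name and the lists from textbook roles, both with earlier results of these data known. Sizes are log2 differences from mock, and folds are 2 to the power of them. MAFK (n = 2) was tested against mock (n = 1) with limma 3.58.1 in R 4.3.3 over all 19935 genes (two-sided, Benjamini-Hochberg), with 1 residual degree of freedom, assuming that mock varies as the clones do. The clones were equal within 1e-08 in 55.5% of genes, so the prior (1.93 degrees of freedom, SD 0.0694) came from the 8873 genes whose clones differed. The smallest standard error, 0.0690, was that of genes equal in the clones. The scripts, run in Python 3.11.15 with pandas 2.3.3, were tested on simulated data.

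Members were named with all values where they were among the 3 largest differences of their role or at least 1.2-fold below mock in both clones, and list genes where they were among the 2 largest of their list at 1.2-fold or a CDK inhibitor. Ccna2, Cdk1, Mcm6 and Mki67 were added to these after their values were seen. The other members' values are given as differences. The other lists were CDK inhibitors, G1 cyclins and CDKs, RB, E2F and DREAM factors, APC/C and SCF, replication, kinetochore, cohesin and condensin, and spindle and cytokinesis genes, beside epithelial, fibroblast, endothelial and immune markers. Alternatives were other priors, an intensity trend, a second quantile normalization, centring on the median, leaving out low genes, the mean over probe sets, other folds and leaving out each clone.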

Additional observations from a re-analysis of the deposited data

How the results depend on the processing

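The count of 22 members at least 1.2-fold above mock in both clones lay between 20 and 24 under every normalization, filter, summary and left-out clone tried, and was 30 at 1.1-fold and 3 at 1.5-fold. With only 1 clone it was 24 for either clone. Of all genes 16.1% were above in both clones at 1.1-fold and 2.54% at 1.5-fold. Of the 7059 genes at or above the lowest member mean these shares were 19.6% and 3.85%. The count of 1 member below (Ccne2) was 0 after a second quantile normalization, after the mean of the chromosome was taken off and at 1.5-fold, and 1 with either clone alone. The 4 members apart between the clones became 15 at 1.1-fold and 0 at 1.5-fold. The median difference of the G1/S members (0.09) ranged from 0.05 to 0.11 over the normalizations, filter and summaries and was 0 or 0.16 with 1 clone, and that of the G2/M members (0.32) ranged from 0.29 to 0.33 and was 0.28 or 0.37. The limma calls rested on the prior: instead of 232 genes and 0 members, eBayes with a prior from all genes called 3553 and 16, and with an intensity trend 3730 and 15. With the prior kept to the same 8873 genes, the calls were 34 after a second quantile normalization and 147 after centring, with 0 members each time. Without low genes the prior came from those of the 8873 that were left, and the calls were 99, with 0 members. Estimating the prior again gave 2267 and 12 after quantile normalization and 12059 and 26 after centring, which break the equal values. This was an alternative chosen after seeing the data, like that by chromosome. Of 29 named members Rrm1, Mybl2 and Foxm1 changed sign in 6 of 261 values, all at differences near 0: -0.02 for Rrm1, -0.02 for Mybl2 and -0.02 for Foxm1 after centring, -0.07 for Mybl2 and -0.04 for Foxm1 by chromosome, and -0.06 for Rrm1 without clone 10. Robust eBayes could not be fitted because most variances were 0. A test without 1 clone has no residual degrees of freedom and was not run. No paired analysis was possible because mock is 1 array. Detection p-values were not used, so signal over background was not assessed.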
